A study of Mus musculus with 4 samples.

Results

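Lambda light chain B cells without Mcc transcripts made up 1245 of the 26825 cells that passed the quality limits, out of 33198 barcodes in 4 single-cell RNA sequencing libraries of mouse liver fine-needle aspirates. They were chosen from the raw counts of unique molecular identifiers (UMIs, 1 per captured transcript molecule) as cells with at least 500 UMIs, at least 300 genes and at most 10% mitochondrial UMIs. Each member also held at least 1 UMI of Cd79a, which encodes the B cell receptor signalling subunit Ig-alpha. It held more UMIs of the lambda constant genes Iglc1, Iglc2 and Iglc3 together than of the kappa constant gene Igkc, no UMI of Mcc, none of the T cell receptor genes Cd3e and Cd3d, and fewer than 10 of Prg4. The same limits with Igkc above the lambda sum gave 14546 kappa B cells, which serve as the comparison. Light chain levels, Cd79a and Mcc were therefore used to choose the cells, and their values below are a description.

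C57BL/6J male mice, 7 weeks old at the start, ate a diet of fructose, palmitate, cholesterol and trans-fat (FPC) that produces metabolic dysfunction-associated steatohepatitis (MASH). P-LC24 and P-HC24 were sampled at week 24 on 0.05% and 1.25% cholesterol, and I-LC32 and I-HC32 were sampled at week 32, after 8 further weeks in which both sets of mice ate 0.05% cholesterol. Each library pooled 12 biopsies, from 4 liver lobes of 3 mice, and the same mice were sampled at both weeks. The tissue was dissociated by a procedure that, by the paper, favours non-parenchymal and immune cells. Red cells were lysed and dead cells removed, with no sort for B cells. Prog denotes P-HC24 over P-LC24 and Int denotes I-HC32 over I-LC32. Runs of 4 values below give the low and then the high cholesterol library of week 24, followed by the same of week 32, and this is called library order. Each condition was 1 library, so that a diet, a set of mice and a library cannot be told apart, and no difference between libraries has a replicate check.

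A B cell joins a heavy chain to a light chain of either the kappa or the lambda type. In the mouse most B cells use kappa, and lambda is usually rearranged in cells whose kappa genes did not give a usable, non-self-reactive receptor. The mouse lambda locus is small, and each constant gene is read together with a few variable genes that lie upstream of it. Liver B cells of the mouse include recirculating follicular cells, which display the low-affinity IgE receptor CD23 (Fcer2a) and IgD, and B-1-type cells, which belong to the innate-like lineage of body cavities and carry much IgM.

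The 3 lambda constant genes lie on chromosome 16 of GRCm39, all on the minus strand. The last 150 coding bases before the stop codon are shown because they show how far the 3 genes differ from each other. They cover chr16:18880505-18880654 for Iglc1, chr16:19017289-19017438 for Iglc2 and chr16:18884118-18884267 for Iglc3. Capitals mark the 55 positions that are not the same in all 3 genes.
Iglc1: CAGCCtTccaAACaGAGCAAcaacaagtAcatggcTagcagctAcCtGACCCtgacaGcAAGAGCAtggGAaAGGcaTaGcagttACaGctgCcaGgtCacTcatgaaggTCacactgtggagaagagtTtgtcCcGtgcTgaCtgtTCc
Iglc2: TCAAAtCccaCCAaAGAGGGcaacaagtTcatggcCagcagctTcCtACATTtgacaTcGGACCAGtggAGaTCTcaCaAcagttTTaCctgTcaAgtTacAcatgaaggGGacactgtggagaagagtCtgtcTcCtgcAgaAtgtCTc
Iglc3: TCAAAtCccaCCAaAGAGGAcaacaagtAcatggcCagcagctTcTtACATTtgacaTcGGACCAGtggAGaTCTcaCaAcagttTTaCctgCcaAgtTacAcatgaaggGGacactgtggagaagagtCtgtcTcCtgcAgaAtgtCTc
Iglc2 differed from Iglc1 at 54 of these positions and Iglc3 from Iglc1 at 52, whereas Iglc3 differed from Iglc2 at 4. Over the whole coding part, Iglc2 and Iglc3 were 96.2% identical, and after the stop codon, where 3' reads fall, they were 89.3% identical. Iglc1 shared 73.4% of coding positions with Iglc2 and 51.8% of positions after the stop codon. The split of UMIs between Iglc2 and Iglc3 is therefore uncertain. Iglc1 differs more from both in sequence, and how many of its reads were misassigned was not tested.

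Lambda B cells were a small and similar share of B cells in every library. There were 247, 304, 341 and 353 members, in library order. Of the lambda and kappa cells without Mcc, they made up 7.88% (95% Clopper-Pearson interval 6.96 to 8.88), 7.14% (6.38 to 7.95), 8.65% (7.79 to 9.57) and 7.92% (7.15 to 8.75). The intervals of all 4 libraries overlapped. These and all later intervals cover counting error only, since UMIs and cells of 1 library are not replicates. The share depended on leaving out Mcc in I-LC32 alone, where 609 further lambda cells held Mcc and made up 64.1% of all lambda cells, against 6.44%, 9.25% and 6.61% in P-LC24, P-HC24 and I-HC32. With Mcc not used, lambda cells were 19.7% of B cells in I-LC32 and 8.16%, 7.35% and 7.77% in the other libraries.

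Members were as deep as kappa cells or deeper. Their median was 6279, 7491, 7438 and 8915 UMIs per cell in library order, against 5791, 6315, 5725.5 and 8214 in kappa cells. Their summed UMIs were 1848543, 2704891, 2959942 and 3514462. Members also held more mitochondrial UMIs, with a median of 4.40%, 5.71%, 5.51% and 4.76% in library order against 3.998%, 5.36%, 5.10% and 4.41% in kappa cells. A limit of 5% left 166, 92, 125 and 204 members and 2330, 1494, 1688 and 2893 kappa cells. Between 17 and 41 barcodes were shared by any pair of libraries, and none of these was a member in both.

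**Figure D1:**
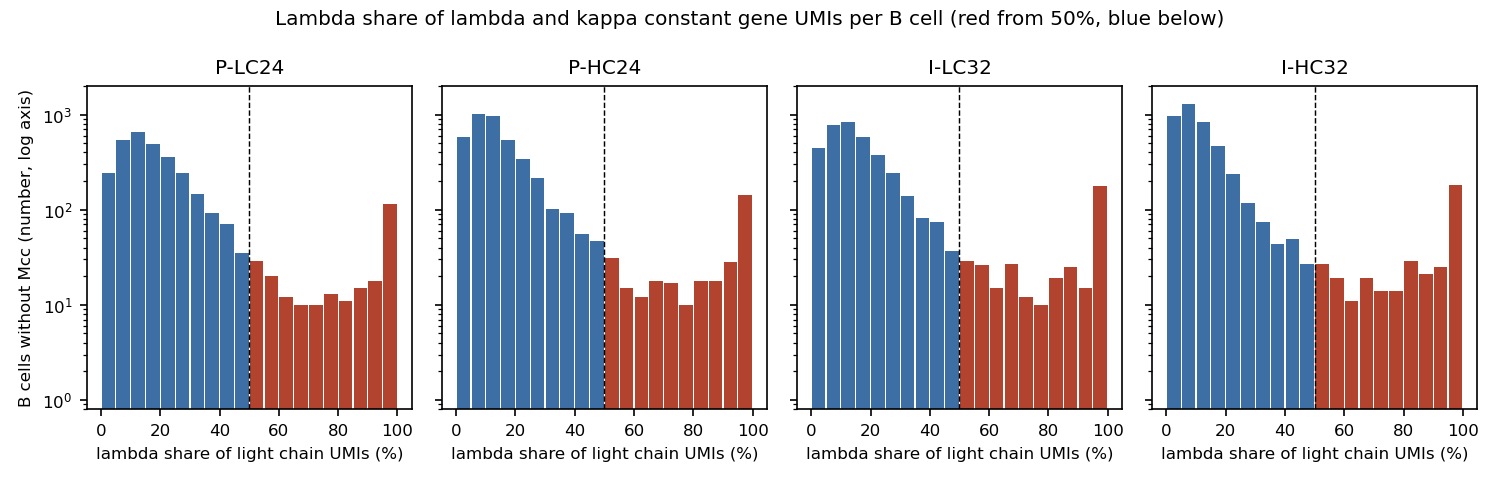
Share of lambda constant UMIs among lambda and kappa constant UMIs in each B cell without Mcc, by library, in bins of 5 percentage points (x axis, percent; y axis, number of cells). Most cells sit below 50%, the kappa side, and the members form a second peak in the bin from 95 to 100%, with 115, 143, 179 and 180 cells in library order.

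The kappa and lambda cells formed a peak each, joined by a continuous run of cells between them. Lambda constant UMIs were at least 90% of the light chain UMIs in 133, 171, 194 and 205 members, and between 50 and 90% in the other 114, 133, 147 and 148. Near the limit, 103 members exceeded Igkc by 1 to 3 UMIs (median 11 lambda and 9 Igkc UMIs), 145 cells had equal counts and were left out, and 267 kappa cells lay 1 to 3 UMIs on the other side. The limit on Cd79a was met by 35 members with a single UMI, whose median was 1 lambda constant UMI. Prg4 stood at 1 to 9 UMIs in 72 members, 44 of them in I-HC32. Among lambda cells left out for Mcc, 88 held 1 UMI of it and 594 held 2 or more.

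Members held other B cell markers, most at shares near those of kappa cells. Cd79b, the partner of Cd79a, was detected in 98.4%, 96.7%, 96.8% and 97.7% of members, and in 98.2%, 98.1%, 98.6% and 98.5% of kappa cells. Ms4a1 (CD20) was detected in 91.5%, 93.8%, 94.7% and 93.5% of members, against 92.7%, 92.3%, 93.4% and 92.8% of kappa cells. Pax5, the factor that keeps B cell identity, was detected in 87.4%, 74.0%, 85.0% and 82.2% of members, against 88.7%, 76.3%, 84.5% and 84.9%. Cd22, an inhibitory receptor, was detected in 54.3%, 38.2%, 41.6% and 45.3% of members, against 48.8%, 37.9%, 43.3% and 43.6%. Ebf1, an early B cell factor, was detected in 97.2%, 97.4%, 97.9% and 98.0% of members and in more kappa cells (99.5%, 99.2%, 99.5% and 99.4%), with intervals apart in all libraries but I-HC32. Fewer than 3 of the 5 markers Cd79b, Ms4a1, Cd22, Pax5 and Ebf1 were detected in 48 of the 1245 members (3.86%), spread as 8, 17, 12 and 11 over the libraries, and in 344 of the 14546 kappa cells (2.36%). These 48 members had a median of 3.5 lambda constant UMIs and 1 Cd79a UMI, so the label does not hold for them by these markers. Another 8 genes of plasmacytoid dendritic cells, chosen after seeing the data (Siglech among them), were detected 4 or more at a time in 4 members.

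Iglc1 and Iglc2 were the main lambda transcripts of the members, and their order changed with the library. Iglc1 averaged 19.98, 22.2, 65.1 and 20.5 UMIs per member in library order. Iglc2 averaged 19.3, 25.2, 20.9 and 34.1, and Iglc3 averaged 7.59, 8.13, 6.80 and 11.4. The high Iglc1 mean of I-LC32 rested in part on 1 cell, which held 10242 Iglc1 UMIs, 46.1% of the Iglc1 of all members of that library and 40.3% of the cell's own 25397 UMIs. That cell also held 2630 UMIs of Ighm, 1205 of the IgM-joining chain gene Jchain and 1 of Ms4a1. With it, Iglc1 of the I-LC32 members was at 7499 CPM (UMIs of a gene over all UMIs of the summed cells, per mega-UMI), and without it at 4074 CPM, against 2669 in P-LC24, 2500 in P-HC24 and 2058 in I-HC32. The median member held 11, 12, 15 and 6 Iglc1 UMIs in library order.

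**Figure D2:**
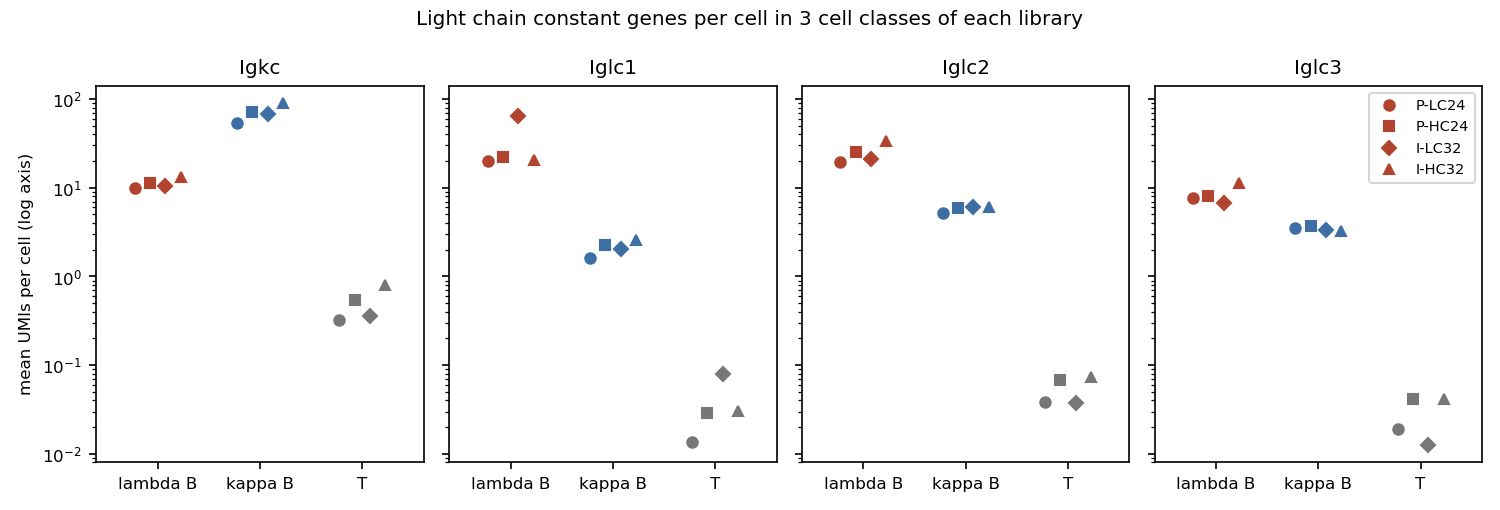
Mean UMIs per cell of Iglc1, Iglc2, Iglc3 and Igkc (log scale) in lambda, kappa and T cells of each library. Members and kappa cells mirror each other in Igkc and the lambda genes, and T cells lie far below both in all 4 libraries.

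Kappa cells held lambda constant UMIs too, and members held Igkc. Iglc2 averaged 5.17, 5.94, 6.12 and 6.11 UMIs per kappa cell, and 0.0388, 0.0687, 0.0374 and 0.0733 per T cell, a cell type that does not transcribe it. The kappa mean was 133, 86.5, 164 and 83.4 times the T cell mean. T cells here were cells within the quality limits with UMIs of Cd3e or Cd3d and none of Cd79a. That limit leaves out T cell barcodes holding this B cell transcript, and its effect on the T cell means was not tested. The median T cell held 8438, 7589, 7006 and 6422 UMIs, more than the median kappa cell in all libraries but I-HC32. Igkc averaged 9.85, 11.2, 10.5 and 13.2 UMIs per member against 54.0, 72.3, 67.7 and 90.2 per kappa cell and 0.323, 0.539, 0.362 and 0.802 per T cell. The lambda UMIs of kappa cells had another make-up than those of members. Iglc1 gave 15.6%, 19.1%, 17.9% and 21.7% of them in kappa cells and 42.6%, 40.0%, 70.1% and 31.1% in members. Whether these UMIs come from the cell itself, from a second cell in the droplet or from misassigned reads was not tested.

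Members were led by Iglc1 or Iglc2 in most cases. The constant gene with the most UMIs was Iglc1 in 103, 134, 182 and 105 members, Iglc2 in 114, 134, 130 and 190, and Iglc3 in 30, 36, 29 and 58 (2 to 4 ties per library were given to the first gene). The Iglc1-led share was 41.7% (35.5 to 48.1), 44.1% (38.4 to 49.9), 53.4% (47.9 to 58.8) and 29.7% (25.0 to 34.8). Both week-32 intervals lay apart from each other, and those of week 24 overlapped.

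The leading variable gene differed with the constant gene. Transcripts run from high to low coordinates, and the genes come as Iglv2 (chr16:19079151-19079609), Iglv3 (chr16:19059957-19060440), Iglc2, Iglv1 (chr16:18903767-18904250), Iglc3 and Iglc1. Iglv1 averaged 0.304, 0.188, 0.252 and 0.156 UMIs per member against 0.0246, 0.0384, 0.0450 and 0.0297 per kappa cell. Of the 142 Iglc1-led members with a variable gene UMI, Iglv1 led in 116, Iglv3 in 18 and Iglv2 in 8. Iglv1 also led in 32 of the 35 such Iglc3-led members. The Iglc2-led members differed, with Iglv2 leading in 47 of 117, Iglv1 in 43 and Iglv3 in 27. Iglv1 lies downstream of Iglc2, and its presence in Iglc2-led cells rested on 51 UMIs in all. Its source was not tested.

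A larger part of the members than of kappa cells was B-1-type, by less at equal depth, and a smaller part was follicular-type. B-1-type cells were those with at least 2 of the 6 genes Zbtb32, Bhlhe41, Cd9, Spn, Cd5 and Plscr1 and no Fcer2a. They made up 20.6%, 35.9%, 33.7% and 52.1% of members and 13.4%, 26.1%, 19.4% and 38.6% of kappa cells. The mean difference was 11.2 points (SD 3.36, n = 4 libraries), with the members higher in 4 of 4 (two-sided exact paired permutation test, p = 0.13, the smallest that 4 libraries allow). Follicular-type cells, with Fcer2a and fewer than 2 of the 6 genes, made up 42.1%, 20.7%, 27.3% and 9.63% of members and 57.2%, 33.1%, 41.7% and 23.6% of kappa cells. The mean difference was -14.0 points (SD 1.15, n = 4), lower in 4 of 4 (exact paired permutation p = 0.13). In every library the gap to kappa cells was larger than its spread between libraries, but this exact test could not pass 0.05 with 4 libraries, which came from 2 sets of mice. After each cell was thinned to 3000 UMIs, which kept 237, 296, 317 and 340 members, the B-1-type difference was 2.25 points (SD 1.05) and the follicular-type difference -9.73 points (SD 1.30). The B-1-type gap in points was thus smaller at equal depth, where the shares fell in both classes of cells. They were 7.17%, 12.8%, 11.4% and 17.6% of members and 6.04%, 10.2%, 7.83% and 15.9% of kappa cells. Members were still higher in 4 of 4 libraries, but their intervals overlapped those of kappa cells in all 4. Without thinning, the B-1-type intervals of both classes of cells lay apart in all 4 libraries. The B-1-type gap was also smaller with mitochondrial UMIs limited to 5%, at 7.41 points (SD 3.24). There 11.4%, 15.2%, 16% and 44.1% of members and 7.42%, 9.17%, 8.06% and 32.5% of kappa cells were B-1-type, so the shares fell in both.

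**Figure D3:**
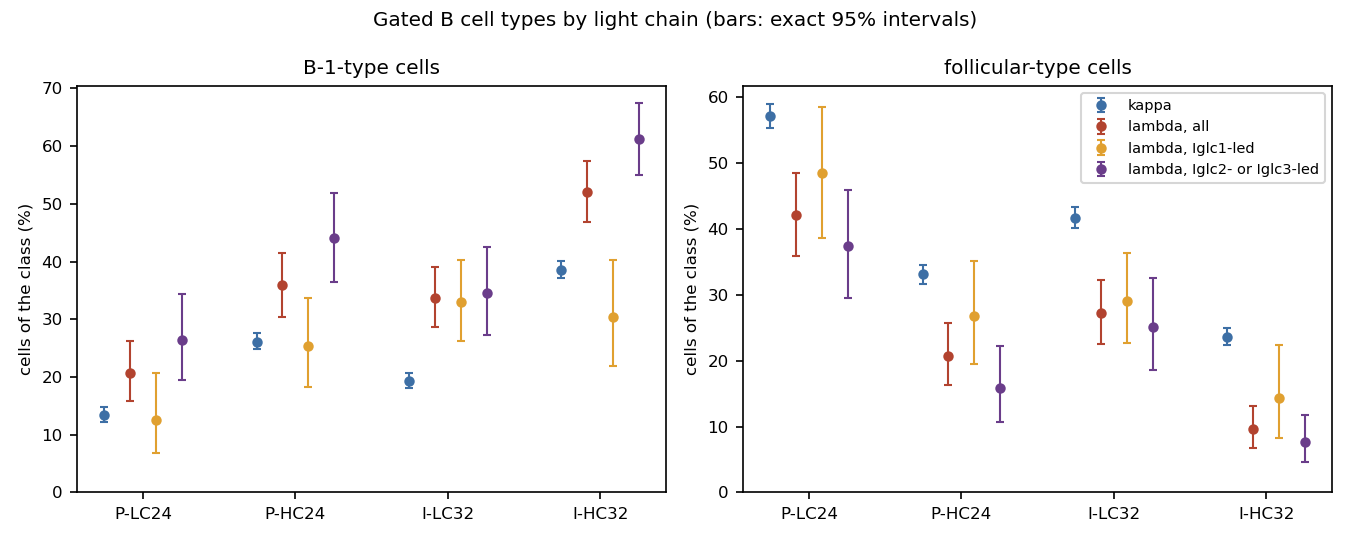
Percent of lambda and kappa cells in the B-1-type and follicular-type classes, by library, with 95% Clopper-Pearson intervals. The members lie above kappa cells in the B-1-type panel and below them in the follicular-type panel in all 4 libraries.

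Many cells sat next to the limits of these classes. Among members, 18, 44, 42 and 53 had 1 of the 6 genes and no Fcer2a, 1 gene short of the B-1-type class, and 40, 44, 59 and 33 held a single Fcer2a UMI. The classes are therefore given as ranges of detected genes, and whether they are separate cell types was not tested.

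The class shares were also taken by the constant gene in use, a split chosen after seeing the data and given without a test. Among members led by Iglc2 or Iglc3, 26.4%, 44.1%, 34.6% and 61.3% were B-1-type. Among Iglc1-led members the values were 12.6%, 25.4%, 33.0% and 30.5%, lower in 3 libraries and nearly the same in I-LC32. They lay below the kappa shares in P-LC24, P-HC24 and I-HC32 and above it in I-LC32. Iglc1-led members also had fewer UMIs, with medians of 5917, 5855.5, 6735 and 7259, against 6256, 8929, 8970 and 9336.5 in Iglc2-led members. The part of depth in these shares was not tested. The follicular-type share of Iglc1-led members was 48.5%, 26.9%, 29.1% and 14.3%, between those of kappa cells and of Iglc2-led or Iglc3-led members (37.5%, 15.9%, 25.2% and 7.66%). Lambda cells with Mcc, of which 609 of 682 came from I-LC32, were B-1-type in 10 of 17, 25 of 31, 524 of 609 and 12 of 25 cells. These shares (58.8%, 80.6%, 86.0% and 48.0%) lay above those of members in all libraries but I-HC32. The cells with Mcc were also deeper, with a median over all libraries of 13018 UMIs in Iglc1-led ones, against 6347.5 in Iglc1-led members. What depth adds to this comparison was not tested.

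Members carried IgM, like kappa cells. Ighm averaged 21.6, 23.4, 32.9 and 33.2 UMIs per member and 18.6, 21.1, 18.1 and 30.01 per kappa cell. IgD was 14.5%, 8.48%, 5.68% and 4.73% of the IgM and IgD UMIs of members and 16.3%, 10.2%, 12.9% and 6.75% of those of kappa cells. The mean difference was -3.16 points (SD 2.70, n = 4), lower in 4 of 4 libraries (two-sided exact paired permutation p = 0.13). Without I-LC32 the mean difference was -1.81 points (SD 0.18). I-LC32 gave the largest gap, -7.21 points, which was -5.61 points without cells holding 100 or more Jchain UMIs. Class-switched cells, led by an IgG, IgA or IgE gene, numbered 0 of 247, 3 of 304, 2 of 337 and 0 of 347 members with a heavy chain UMI. A count of 0 allowed a share of up to 1.21% in P-LC24 and 0.865% in I-HC32 (3 counts of the total), and kappa cells had 0.486%, 0.381%, 0.530% and 0.660%, so a difference in switching was not detectable at this depth (mean -0.119 points, exact paired permutation p = 0.875).

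Several heavy chain variable genes led in other shares of the 314 members with an Ighv UMI than of kappa cells. These genes were picked from the counts and are given without a test. Ighv9-3 led in 25 of these members (7.96%, interval 5.22 to 11.5), at 6 of 95, 7 of 83, 3 of 67 and 9 of 69, and in 89 of 3303 kappa cells (2.69%, 2.17 to 3.31). Ighv11-2, a gene known for B-1 antibodies that bind phosphatidylcholine, led in 4 members (1.27%, 0.348 to 3.23) and in 358 kappa cells (10.8%, 9.80 to 11.9). The kappa share of Ighv11-2 was 7.66%, 9.51%, 10.5% and 16.6% by library, against 1 of 95, 3 of 83, 0 of 67 and 0 of 69 members. Ighv1-19 led in 15 members (4.78%) and 49 kappa cells (1.48%), and Ighv7-3 in 14 members (4.46%) and 31 kappa cells (0.939%). Ighv7-3 rested largely on I-HC32, with 1 of 95, 4 of 83, 1 of 67 and 8 of 69 members. Others had overlapping intervals, such as Ighv3-6 (4.78% of members and 4.03% of kappa cells), Ighv1-26 (2.87% and 3.36%), Ighv6-3 (2.87% and 3.45%) and Ighv12-3 (2.23% and 2.33%). Ighv8-5 led in 13 members, 10 of them in I-LC32, in 13 kappa cells (0.394%) and in 153 of the 196 lambda cells with Mcc and an Ighv UMI (78.1%). Iglc1 led in 12 of those 13 members. In I-LC32 Ighv8-5 led in 10 of 67 members (14.9%, 7.40 to 25.7), in 0.147% of kappa cells and in 86.2% of lambda cells with Mcc. Whether such members are cells of the Mcc kind without a captured Mcc UMI was not tested, nor was their part in other I-LC32 values.

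Gene expression was then compared between the summed counts of members and of kappa cells of the same 4 libraries, with edgeR's quasi-likelihood test, the library as a block and all immunoglobulin light chain genes and genes of the rule left out. Of 12720 genes tested, 190 were higher in lambda cells (1.49%) and 198 were lower (1.56%) at an adjusted p under 0.05. Without the library block 0 genes were higher and 1 was lower (456 at an unadjusted p under 0.05, edgeR). With mitochondrial UMIs limited to 5%, 120 genes were higher and 60 lower, of which 132 were among the 388, and the part of mitochondrial content in the differences was not tested further. Leaving out P-LC24 gave 78 higher and 119 lower, leaving out I-LC32 gave 104 and 136, and leaving out I-HC32 gave 138 and 123.

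Among the lower genes was Fcer2a (CD23; chr8:3731737-3744183, minus strand). It stood at 152, 44.0, 65.9 and 23.6 CPM in members and at 196, 81.1, 120 and 52.1 CPM in kappa cells. Each member value lay below the kappa value of its own library, while the ranges over libraries overlapped (log2 fold change -0.76, SE 0.10, edgeR adjusted p = 0.000719). Fcer2a also defines the follicular-type class, so both results are 1 observation. Cr2, the complement receptor CD21 that is high on marginal zone cells, was at 71.9, 19.2, 29.4 and 15.9 CPM against 90.1, 32.5, 45.5 and 25.4 CPM (log2 -0.55, SE 0.09, edgeR adjusted p = 0.00255).

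The genes with the lowest log2 fold changes were all lower in members in 4 of 4 libraries. Chst10, a carbohydrate sulfotransferase gene (chr1:38902945-38937258), was at 15.7, 11.1, 15.9 and 13.9 CPM in members and 31.7, 20.6, 31.2 and 26.3 CPM in kappa cells (log2 -0.94, SE 0.10, edgeR adjusted p = 0.00024). The carboxypeptidase gene Cpm was at 97.9, 56.6, 108 and 105 CPM against 149, 101, 200 and 164 CPM, so that its groups nearly separated (log2 -0.73, SE 0.06, edgeR adjusted p = 3.55e-05). The kinase gene Tnik (log2 -0.92), the cytokine receptor gene Flt3 (-0.85), Tmem108 (-0.84), the costimulatory ligand gene Icosl (-0.79), the ubiquitin ligase gene Neurl3 (-0.72) and the exchange factor gene Rapgef4 (-0.71) also fell. Gzma, a granzyme of killer lymphocytes, had the lowest value (log2 -1.90, SE 0.30, edgeR adjusted p = 0.00269), from 2.70, 11.8, 1.01 and 3.98 CPM in members and 32.0, 29.6, 12.6 and 7.04 CPM in kappa cells. All 10 of these genes, Fcer2a included, stayed lower past the threshold among cells with at least 3 of the 5 B cell markers.

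**Figure D4:**
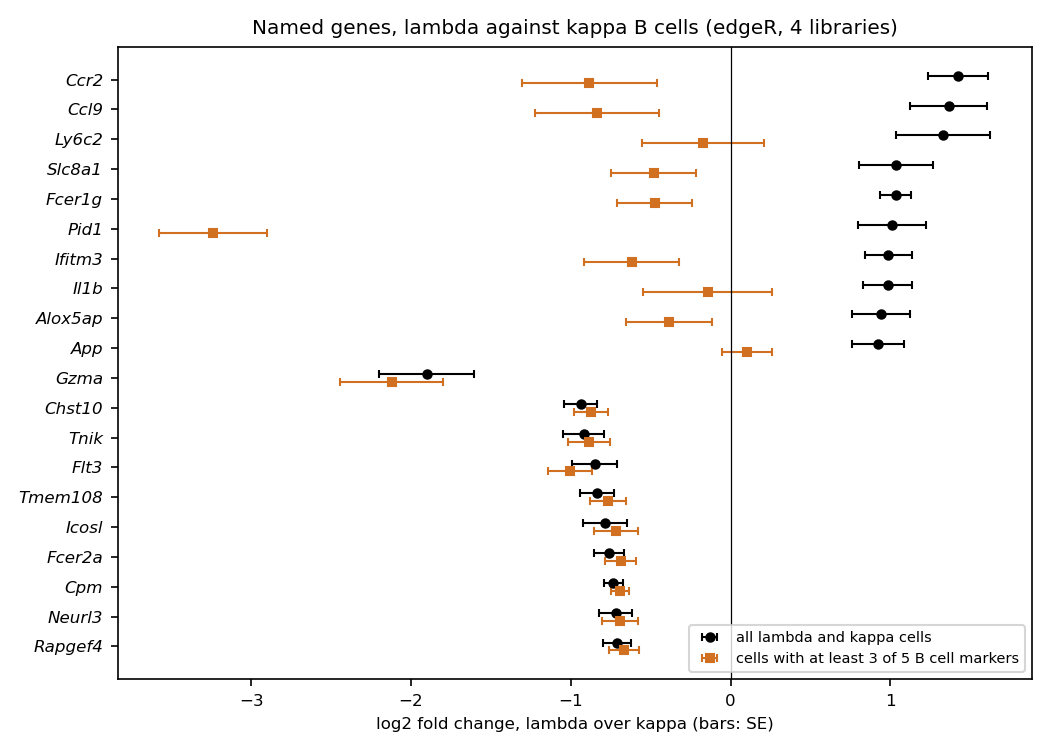
Log2 fold change of lambda over kappa cells (x axis) for the 10 highest and 10 lowest named genes, with standard errors, for all cells and for cells with at least 3 of the 5 B cell markers. The lower genes keep their values in both sets, and 9 of the 10 higher genes move to 0 or below in the second set.

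The genes with the highest log2 fold changes included several known from monocytes, such as Ccr2, Ly6c2 and Fcer1g, and none of the 10 was higher past the threshold among cells with at least 3 B cell markers. Ccr2, a monocyte chemokine receptor gene, was at 28.7, 32.2, 20.6 and 15.6 CPM in members and 6.91, 9.09, 11.1 and 8.14 CPM in kappa cells (log2 1.42, SE 0.19, edgeR adjusted p = 0.00102). Fcer1g, an Fc receptor signalling chain gene, was at 80.1, 83.2, 86.8 and 52.9 CPM against 34.7, 45.8, 34.2 and 32.7 CPM (log2 1.03, SE 0.09, edgeR adjusted p = 8.24e-05). The others were Ccl9 (1.36), Ly6c2 (1.33), Slc8a1 (1.04), Pid1 (1.01), Ifitm3 (0.99), Il1b (0.98), Alox5ap (0.94) and App (0.92). In cells with at least 3 of the 5 B cell markers, a condition added after seeing the data, the log2 fold changes of Ccr2 and Fcer1g were -0.88 and -0.47, neither past the threshold (edgeR adjusted p = 0.394 and 0.417), and App alone of the 10 stayed above 0 (0.10). Il1b, which encodes the cytokine IL-1 beta, was at -0.14 there, but was higher past the threshold in the follicular-type cells (1.93, edgeR adjusted p = 0.000219) and in the B-1-type cells (1.18, adjusted p = 0.0238). Under that condition 201 of 12553 genes were higher (1.60%) and 175 lower (1.39%), of which 283 genes were among the 388 called over all cells.

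Of 8 genes of macrophages and granulocytes, 2 were higher in members over all cells (Csf1r, log2 0.85, and Cd68, 0.60) and 0 of 8 among cells with 3 B cell markers. Over all genes tested 1.49% were higher and 1.56% lower, the shares beside which the list counts of members against kappa cells stand. The summed level of these 8 genes was 509, 705, 795 and 305 CPM in members and 559, 695, 263 and 418 CPM in kappa cells, with Lyz2 the most abundant. Of 6 T cell genes tested, of 5 tested from peritoneal macrophages and of 5 of red cells, none passed the threshold. Of 6 genes of natural killer cells 1 fell, Gzma, and their sum was 6.49, 22.6, 5.07 and 22.8 CPM in members and 57.3, 50.9, 23.2 and 13.5 CPM in kappa cells. The T cell sums were 21.6, 27.4, 27.7 and 17.9 CPM in members and 20.7, 20.8, 19.4 and 21.03 CPM in kappa cells. Haemoglobin and other red cell genes summed to 9057, 21771, 11643 and 2229 CPM in members, and in I-HC32 a single member held 94.9% of the haemoglobin UMIs. Hepatocyte genes stayed under 3 CPM in members of all libraries and Serpina1a had no UMI.

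Of the genes that mark B cell types, follicular genes included the most that were lower. Of 9 follicular genes, 5 were lower in members and 0 higher, with a median log2 fold change of -0.19. Over all genes tested the median was 0.00 and 1.56% were lower. These were Fcer2a, the chemokine receptor Ccr7 (log2 -0.38), the repressor Bach2 (-0.25), Cd55 (-0.19) and Ighd (-0.29). Ccr7 was at 219, 168, 223 and 154 CPM in members and 251, 215, 305 and 220 CPM in kappa cells. With at least 3 B cell markers, Fcer2a, Ccr7 and Bach2 remained lower, while Ighd (log2 -0.24, edgeR adjusted p = 0.0831) and Cd55 (-0.13, adjusted p = 0.132) did not pass. Within follicular-type cells Bach2 stood at 0.05 and Cd55 at 0.07, and within B-1-type cells at 0.21 and 0.03, none of these past the threshold. Of the 6 genes that define the B-1-type class, 1 was higher and 0 lower. Their values and the share of that class are not separate observations. Bhlhe41 (log2 0.24) and Cd9 (0.17) lay above kappa cells, none past the threshold. Cd5 lay below (-0.31, mean of 2.65 CPM in members and 3.18 in kappa cells) and did not pass either. Plscr1 rose, from 70.3, 87.9, 63.8 and 116 CPM in kappa cells to 81.7, 102, 109 and 158 CPM in members (log2 0.44, SE 0.08, edgeR adjusted p = 0.00939). Zbtb32, a transcription factor gene of B-1 and memory cells, was above kappa cells in 4 of 4 libraries but missed the threshold (log2 0.24, edgeR adjusted p = 0.0595), and passed it among cells with 3 B cell markers (0.29, adjusted p = 0.0261).

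In the lists of trafficking receptors, MHC class II presentation and activation, the genes that passed the threshold were lower in members. Of 11 trafficking receptors, 4 fell and 0 rose, namely Ccr6 (log2 -0.68), Ccr7, the oxysterol receptor Gpr183 (-0.20) and the integrin Itga4 (-0.19). Among cells with 3 B cell markers Gpr183 stood at -0.16 and did not pass (edgeR adjusted p = 0.074). Ccr2, higher over all cells, is not in that list. Ccr6 was at 49.2, 50.6, 28.7 and 33.6 CPM in members and 85.7, 56.0, 61.0 and 59.2 CPM in kappa cells, with every member value below every kappa value. Of 10 genes of MHC class II presentation, H2-Oa (-0.29), H2-Aa (-0.09) and Cd74 (-0.06) fell, by small amounts, and 2 of the 10 were lower among cells with 3 B cell markers. Of 15 immediate-early and activation genes, Cd69 (-0.34) and Nr4a1 (-0.29) fell. Of 14 B cell receptor signalling genes, the adaptor Pik3ap1 fell (-0.36) and the other 13 did not pass. Of 7 marginal zone genes tested, Cr2 and Notch2, the receptor that directs marginal zone fate (-0.29), fell and Mzb1 rose. Of 8 memory and atypical B cell genes, the costimulatory Cd86 fell (-0.26) and Fcrl5 rose. Of 7 B lineage genes, Ebf1 (-0.12) and Cd74 fell and Ms4a1 rose. None of the 7 was lower past the threshold among cells with 3 B cell markers. Ebf1 and Ms4a1 are themselves among the markers of that condition. Their values there are partly set by it and give no check of them.

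Genes higher in members in 4 of 4 libraries included Fcrl5, Mzb1 and Ighm. Fcrl5, an Fc-receptor-like gene of innate-like B cells, was at 54.1, 59.2, 65.2 and 105 CPM in members and 37.0, 45.9, 39.2 and 73.8 CPM in kappa cells (log2 0.55, SE 0.07, edgeR adjusted p = 0.000812). Mzb1, a chaperone of IgM assembly, was at 322, 442, 453 and 503 CPM against 261, 427, 357 and 416 CPM (log2 0.25, SE 0.04, edgeR adjusted p = 0.00473). Ighm rose (log2 0.28, SE 0.07, edgeR adjusted p = 0.0406), and by 0.19 without cells of 100 or more Jchain UMIs (adjusted p = 0.0018). Ms4a1 rose slightly (0.18), as did the survival gene Mcl1 (0.16), 1 of 7 genes tested of the BAFF and survival list, and Derl3, of protein export from the endoplasmic reticulum, rose from a low level (1.33). Of 7 plasmablast genes tested, Mzb1 and Derl3 were the ones that rose. Jchain was at 0, 1.11, 408 and 2.56 CPM in members, and 99.8% of the I-LC32 value was in the cell with the highest Iglc1 count. Ighg2b (-3.33) and Igha (-2.22) were lower in members, but neither passed without cells of 100 or more Jchain UMIs (edgeR adjusted p = 0.48 and 0.89). None of 5 transitional, 6 germinal centre or 1 tested light chain editing gene (Vpreb3) passed. In the remaining lists, Hsp90ab1 rose among 10 heat shock genes (0.09), Ly6a among 13 interferon genes (0.18) and Abca1 fell among 10 sterol genes (-0.26). Among cells with 3 B cell markers Hsp90ab1 (0.097) and Abca1 (-0.22) did not pass (edgeR adjusted p = 0.051 and 0.0655).

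Within a B cell class, lambda and kappa cells differed in far fewer genes. Among follicular-type cells 27 of 10237 genes were higher in members (0.264%) and 15 lower (0.147%). Tnik (-0.82, edgeR adjusted p = 0.021), Itga4 (-0.40) and Cd86 (-0.38) were among the lower genes and Ighm among the higher (0.31). Among B-1-type cells 1 of 10504 genes was higher (0.00952%), Il1b, and 18 were lower (0.171%). These fits rest on fewer cells, and the part of class make-up in the differences over all cells was not tested. Members led by Iglc1 gave 0 higher and 7 lower genes against kappa cells (680 at an unadjusted p under 0.05, edgeR), and members led by Iglc2 or Iglc3 gave 254 and 283. These 2 sets were chosen after seeing the data. Fcer2a was at log2 -0.34 in the former and -1.08 in the latter, and Neurl3 was at -0.18 and -1.20. The difference between both sets was not tested.

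Genes beside the light chain loci were looked at apart from the lists. Gm30211, a non-coding RNA gene that spans Igkc on the same strand (chr6:70695829-70730454), was at 81.7, 43.6, 66.2 and 52.6 CPM in members and 245, 154, 193 and 173 CPM in kappa cells (log2 -1.65, SE 0.06). Where both overlap, their reads cannot be told apart, and since Igkc chose the cells this is a description. Eif2ak3, the kinase gene PERK of the unfolded protein response, starts 118 kb beyond Igkc (chr6:70821461-70882235) and was at 149, 123, 177 and 161 CPM against 225, 155, 228 and 228 CPM (log2 -0.43, SE 0.05, edgeR adjusted p = 0.0005). Of 7 genes tested within 500 kb of Igkc, Eif2ak3 fell beside Gm30211, which is not counted as a result, and 0 rose. Of 13 within 500 kb of the lambda genes, the non-coding 2010309G21Rik (-0.53) and Gm43388 (-0.49) fell and 0 rose, both overlapping the locus. Since lambda genes chose the cells, these values are a description too. In Iglc1-led members 2010309G21Rik was at -1.13 and Gm43388 at 0.07, and in Iglc2-led or Iglc3-led members at -0.23 and -1.06. Gm30211 and both of these are among the 198 genes counted as lower.

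Between libraries, members were compared as CPM ratios of 1 library to another, with exact Poisson intervals and no test, for genes with at least 100 UMIs over both libraries and detected in at least 10% of cells of either. In Prog, 199 of 5159 genes were higher in P-HC24 by 1.5-fold or more (3.86%) and 1159 lower (22.5%), around a median log2 ratio of -0.24, and kappa cells had a median of -0.21. In Int, 252 of 6483 genes were higher in I-HC32 by 1.5-fold or more (3.89%) and 207 lower (3.19%), with a median of 0.02. In sums of this kind fewer cells of a type and less RNA per cell cannot be told apart.

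The 3 named genes highest in Prog had much of their count in single members. Fn1 (fibronectin) was at 11.4 CPM in P-LC24 and 123 CPM in P-HC24 (log2 3.44, interval 2.81 to 4.15), and 53.3% of its P-HC24 UMIs were in 1 member, without which it stood at 58.4 CPM. Slpi, a protease inhibitor gene, was at 27.0 and 169 CPM (2.65, 2.22 to 3.10), with 62.9% in 1 member and 63.0 CPM without it. Lyz2 (lysozyme) was at 160 and 499 CPM (1.64, 1.46 to 1.83), and 81.4% of the P-LC24 UMIs were in 1 cell, without which that library had 30.04 CPM. Ass1 (1.55), Zcwpw1 (1.28) and Anxa2 (1.198) followed, none of them a macrophage marker in the lists used. The peritoneal macrophage list summed to 41.7, 187, 28.7 and 110 CPM in members and to 21.8, 86.1, 22.8 and 110 CPM in kappa cells. Its part in the Prog and Int ratios was not tested.

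Fcer2a, other follicular genes and Egr1 were lower in P-HC24. Fcer2a was at 152 CPM in P-LC24 and 44.0 CPM in P-HC24 (log2 -1.79, -2.11 to -1.47), against -1.27 in kappa cells. Of 9 follicular genes, 5 were at least 1.5-fold lower in Prog and 0 higher (median -0.83, kappa cells -0.70), among them Bach2 (-1.12) and Ighd (-1.01). Over all genes compared in Prog, 22.5% were lower and 3.86% higher by that fold. Egr1, an immediate-early gene, was at 75.2 and 23.7 CPM (-1.67, -2.12 to -1.23), and -0.67 in kappa cells. Fhit, a gene of nucleotide metabolism, was at 114 and 33.3 CPM (-1.78, -2.15 to -1.42), while kappa cells had -0.35. The other named low genes were Kansl1l (-1.79), Rasgrp3 (-1.78) and Fchsd2 (-1.43). Of 7 B-1 genes compared, Zbtb32 (0.93, 0.52 to 1.35) and Itgam (0.78, 0.23 to 1.35) were at least 1.5-fold higher and 0 lower (median 0.46, kappa cells 0.50). Of 14 B cell receptor signalling genes, 5 were lower, Btk (-0.80) and Cd22 (-0.79) among them, beside the 22.5% of all genes compared, and their median was -0.45 in members and -0.44 in kappa cells. The 4 red cell genes compared were all at least 1.5-fold higher (median 1.37), whereas kappa cells had a median of -0.77.

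**Figure D5:**
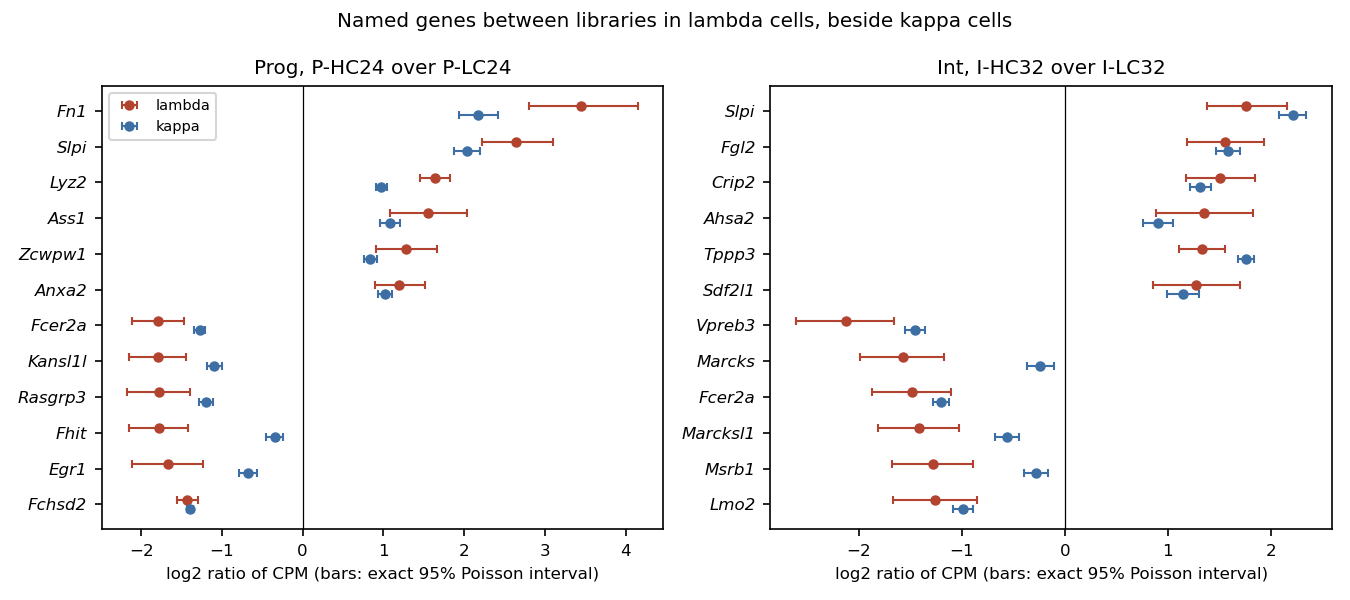
Log2 CPM ratio between libraries in lambda cells, with 95% Poisson intervals, beside that of kappa cells, for the named genes of Prog and Int. Each gene's lambda and kappa values lie on the same side of 0, and Fhit in Prog and Marcks in Int show wide gaps between them (-1.78 against -0.35, and -1.57 against -0.24).

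In Int, 5 heat shock genes were higher and 2 follicular genes lower in I-HC32. Of 8 heat shock genes compared, 5 were at least 1.5-fold higher and 0 lower (median 0.78, kappa cells 0.75). Over all genes compared in Int, 3.89% were higher and 3.19% lower by that fold. Hsp90ab1 was at 1007 CPM in I-LC32 and 2046 CPM in I-HC32 (1.02, 0.96 to 1.08), and Hsph1 was at 37.8 and 78.5 CPM (1.05, 0.73 to 1.38). Vpreb3, a surrogate light chain gene kept by immature and follicular cells, was at 60.8 and 13.9 CPM (-2.12, -2.61 to -1.66), and -1.46 in kappa cells. Of 9 follicular genes, 2 were at least 1.5-fold lower and 0 higher (median -0.37, kappa cells -0.38). Fcer2a was at 65.9 and 23.6 CPM (-1.48, -1.87 to -1.10), against -1.20. Marcks, a protein kinase C substrate gene, was at 61.8 and 20.8 CPM (-1.57, -1.99 to -1.17), while kappa cells had -0.24. Marcksl1 (-1.42), Msrb1 (-1.28) and Lmo2 (-1.26) were the other named low genes. Slpi (1.76), Fgl2 (1.55), Crip2 (1.51), Ahsa2 (1.35), Tppp3 (1.33) and Sdf2l1 (1.27) were the named high genes. Slpi in I-HC32 was spread over 182 of the 353 members, with 2.80% in the highest cell. The 4 red cell genes compared were 1.90 to 2.61 lower on the log2 scale (median -2.26, kappa cells -2.37). Among follicular-type members alone, Fcer2a, part of that class, was at -0.66 in Prog and -0.31 in Int and Vpreb3 at -1.28 in Int.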

How the data were processed

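The authors made the deposited UMI counts from 3' single-cell libraries (10x Genomics), and the submitters' processing notes name Cell Ranger 9.0.1, GRCm39 and Seurat 5.3, while the settings for multi-mapped reads are not given in the sources used here. Gene positions and sequences are from the GRCm39 annotation and genome. The 4 libraries held 50941106, 73837023, 79215858 and 89257239 UMIs, and cells were chosen from the counts as given in the opening. The members, gene lists and tests were chosen with earlier results of these data known.

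UMIs were summed per library and class (8 sums) and tested with edgeR 4.0.16 (TMM factors, low-count filter, quasi-likelihood test, library as block, Benjamini-Hochberg adjustment). Members and kappa cells of 1 library come from the same mice, and p-values measure the spread between 4 libraries of 2 sets of mice. Named genes were the 10 highest and 10 lowest log2 fold changes among genes past the threshold with at least 20 CPM in the higher class, the 6 highest and 6 lowest ratios between libraries with at least 200 UMIs, and members of the lists. Immunoglobulin, T cell receptor, haemoglobin, mitochondrial and unnamed genes were left out of these ranks. Shares were tested by exact sign flips over libraries. Doublets were scored with Scrublet (scanpy 1.11.5) and kept, with an alternative without the highest scores. Alternatives added after seeing the data were the sets led by single constant genes, at least 3 of 5 B cell markers, and cells without high Jchain or without the dendritic cell genes. A pair of genes was left out of the marker and gene lists and is not reported here.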

Additional observations from a re-analysis of the deposited data

Results flagged for a closer look

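Among 13 quantities looked at, the lambda minus kappa difference in the IgD share stood apart in I-LC32, at -7.21 points. This was judged by the gap of its value to the nearest other library over the whole range. Chance marks about 1 in 20 such sets of 4 values. The rule also marked 2 quantities of I-LC32 that were used to choose the cells. Neither the rule nor its chance rate applies to them, and they are a description only. Mean Iglc1 per lambda cell was 65.1 UMIs, of which 1 cell held 46.1%, and Mcc was detected in 64.1% of lambda cells. Lyz2 moved opposite ways in lambda cells between Prog (log2 ratio 1.64) and Int (-0.98), where kappa cells had 0.97 and 0.65. In P-LC24 81.4% of the Lyz2 UMIs of members were in 1 cell and in I-LC32 26.7%, the highest share of 1 cell in that library. That difference between Prog and Int was not tested, since each is 1 library over another.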

How the results depend on the processing

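Over 888 alternative values, 114 of those on shares, makeup and counts of genes were labelled as kept, 44 as moved and 8 as reversed. For differences in class shares and heavy chain values the label gives direction, and it is no measure of size. The B-1-type difference, for example, was 11.2 points over all cells and 2.25 points after thinning to 3000 UMIs. Of the values on single genes 518 kept their call, 164 lost it, 9 moved and 31 reversed. The causes were not tested. Members were 6.65%, 5.80%, 6.89% and 6.59% of B cells in library order with mitochondrial UMIs limited to 5%, and 6.74%, 5.79%, 7.33% and 6.46% where lambda had to be at least 3 times kappa. With Mcc not used, I-LC32 had 19.7%. Iglc1 led in 50%, 51.1% and 62.4% of members of P-LC24, P-HC24 and I-LC32 under the 5% limit, and in 48.8% in P-LC24 under the 3-fold rule. The B-1-type difference from kappa cells lay between 10.2 and 12.6 points and the follicular-type one between -14.5 and -13.6 when each library was left out in turn (7.41 and -11.4 under the 5% limit), and the IgD difference between -3.65 and -1.81. The difference in switched cells was -0.361 to 0.0612 points with each library left out, 0.206 under the 5% limit and 0.0126 under the 3-fold rule. That in cells led by the leading Ighv gene was -0.388 over all libraries, -2.001 to 0.676 with each library left out, 1.90 under the 5% limit, 0.239 without the highest Scrublet scores and 0.934 under the 3-fold rule, so its sign is not settled.

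Pairing the classes by library decided the count of genes. With the library as a block edgeR called 190 higher and 198 lower, and with no block 0 and 1. DESeq2 with the block called 178 and 169. With each library left out, 78 to 156 genes were higher and 119 to 155 lower. The counts were 120 and 60 under the 5% limit, 27 and 15 in follicular-type cells, 1 and 18 in B-1-type cells, 0 and 7 for Iglc1-led members, and 239 higher and 1002 lower with no filter on low counts. Between libraries, a 1.2-fold limit gave 845 genes up and 2491 down for Prog, then 1178 and 1022 for Int, a 2-fold limit 39 and 179, and 37 and 29, a minimum of 20 UMIs 660 and 2408, and 824 and 872, and follicular-type members alone 76 and 336, and 54 and 112.

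Among the named genes higher in members, those with at least 3 B cell markers reversed Ccr2 (-0.88), Ccl9 (-0.84), Ly6c2 (-0.17), Slc8a1 (-0.48), Fcer1g (-0.47), Pid1 (-3.24), Ifitm3 (-0.62), Il1b (-0.14) and Alox5ap (-0.39). Follicular-type cells reversed Ccr2 (-7.11), Ccl9 (-0.26), Ly6c2 (-1.76), Slc8a1 (-0.35), Fcer1g (-0.13), Pid1 (-7.60), Ifitm3 (-0.42), Alox5ap (-0.31), Ly6a (-0.071) and, from lower to higher, Ighd (0.086), none of them past the threshold. The values of Ccr2 and Pid1 in follicular-type cells (SE 2.30 and 1.99) were fitted with no UMI in these members and give no fold. Pid1 was lower past the threshold with at least 3 B cell markers and under the 3-fold rule. The 3-fold rule reversed Ccl9 (-1.06), Pid1 (-2.85), Ifitm3 (-0.54) and Alox5ap (-0.026), and Iglc1-led members reversed Pid1 (-0.84). In B-1-type cells Tmem108 (0.21), Icosl (0.27), Ighd (0.18), Cr2 (0.40), Ccr7 (0.20), Bach2 (0.21), Cd55 (0.03), Gpr183 (0.08) and Itga4 (0.03) were above kappa cells and Ighm (-0.0085) and Ly6a (-0.0086) below. Bach2 (0.05) and Cd55 (0.07) were also above kappa cells in follicular-type cells. Of other list genes the text names, H2-Oa (0.02), Ebf1 (0.04) and Mcl1 (-0.05) changed sign in B-1-type cells, and Abca1 (0.07), Hsp90ab1 (-0.02), Csf1r (-1.17) and Igha (0.47) in follicular-type cells. With at least 3 B cell markers Cd68 (-0.22), Csf1r (-0.79) and Igha (0.16) did so, Csf1r (-0.56) under the 3-fold rule, Igha (0.10) without high Jchain, and Bach2 (0.01), Ebf1 (0.02), Csf1r (-0.01) and Gm43388 (0.07) for Iglc1-led members. None of the 10 named lower genes reversed under the other alternatives run. Depth limits the Ighv counts, which rest on 314 members, and a share of 0 in the 67 and 69 such members of I-LC32 and I-HC32 allows up to 4.48% and 4.35% (3 counts).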
